A study of Mus musculus with 32 samples.

Results

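Interferon-stimulated genes were followed through a mouse mammary model of the epithelial to mesenchymal transition, as a set of 32 genes named by their symbols. They were chosen as probe sets that the platform annotation gives to 1 gene symbol on the list or to an older synonym, with 1 probe set per gene, the one of highest mean over 24 arrays. Of the 32 genes, 29 were measured, out of 18194 genes with such a probe set, and 22 passed the filter on low values, which kept probe sets whose log2 signal exceeded 5.52, the overall median, on 8 or more of the 32 arrays. The values are log2 RMA signals from an Affymetrix mouse genome array with 45101 probe sets, from 16 groups of 2 arrays. NMuMG is an established epithelial line of normal murine mammary gland, and E1KD is a derivative of it in which hnRNP E1, an RNA-binding protein encoded by Pcbp1, was silenced with a short hairpin RNA. Both were left untreated (control) or given TGFβ2 at 5 ng/ml for 24 h, and total RNA, the monosomal pool (ribosomal subunits and single ribosomes, taken as non-translating) and the polysomal pool (actively translating) were hybridized. RNA precipitated with α-hnRNP E1 or with IgG came from NMuMG cells with and without TGFβ2 on 8 further arrays, whose labels state no time. E1KD is 1 derived line, no line with a control hairpin was analysed here, and any property of that derivative cannot be told apart from the loss of hnRNP E1. The labels call the 2 arrays of a group biological replicates without naming separate cultures, so the p-values measure the spread between these samples only, and their number limits the precision.

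Type I interferons signal through IFNAR1 and IFNAR2, and type II interferon through IFNGR1 and IFNGR2, to the kinases JAK1, JAK2 and TYK2, which phosphorylate STAT proteins. The factor ISGF3, which contains STAT2 and IRF9, binds the interferon-stimulated response element (ISRE) of promoters, and the gamma-activated site (GAS) is a further element of interferon-induced promoters. The induced genes encode sensors of viral RNA, enzymes and binding proteins that act against viral RNA or assembly, antigen presentation proteins, and the very factors that induce them, and many are also transcribed at a low level in epithelial cells without infection.

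Promoter windows are shown for a choice of genes that hold the core letters of these elements and are named below. They are not those of every gene whose signal changed. Trim25, Oasl1, Irf7, Irf9, Tap1 and Cmpk2 also changed in some comparisons and held neither core. The GAS cores of Ifi35, Oas1a, Bst2 and Igtp are not shown, nor is every ISRE core. Sequences are from RefSeq (GRCm38.p6), written along the gene's strand, with the motif in capitals, on whichever strand it lies. The ISRE core searched was GAAANNGAAA and the GAS core TTCNNNGAA, both on both strands, in the 250 bases before and 50 after each annotated start. Neighbouring cores may overlap each other.
Ifit3, chr19:34583365-34583390: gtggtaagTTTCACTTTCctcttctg
Ifit3, chr19:34583399-34583424: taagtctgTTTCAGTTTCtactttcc
Ifit2, chr19:34550445-34550469: atgggagcTTCCTGGAAgaatggat
Irf1, chr11:53769916-53769940: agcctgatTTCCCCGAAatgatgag
Stat2, chr10:128270268-128270293: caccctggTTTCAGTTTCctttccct
Oas1a, chr5:120907522-120907547: gggaaatgGAAACTGAAAatctactt
Bst2, chr8:71537579-71537604: aggaaaatGAAACTGAAAggctgcag
Irgm1, chr11:48871427-48871452: aagaaataGAAACCGAAActgattct
Ifih1, chr2:62646206-62646231: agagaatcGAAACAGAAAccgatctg
The Ifit3 cores began 156 and 122 bases before the annotated start, and the Ifih1 core lay 32 bases after it, in the transcribed part. Of the 32 genes, 27 were matched in the promoter table, with 31 promoters. Of these 31 promoters 15 (48.4%) held an ISRE core, against 3.44% of all 32851 promoters, each of a different gene. A GAS core was found in 6 of the 31 (19.4%), against 8.3% of all promoters. Ifit2, Ifi35 and Irf1 held a GAS core and no ISRE core in this window. A match is a description of letters, not of a bound site. Usp18, Oas2, Mx1, Mx2 and Dhx58 were the unmatched genes.

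The cells were first checked against their label. In total RNA the epithelial genes Krt8 (14.13 to 14.38), Krt18 (14.28 to 14.46) and Cdh1 (11.79 to 12.53) were high on the array's scale, whereas Epcam (5.88 to 6.21) was near the filter limit and Esrp1 (3.68 to 4.21) and Cldn7 (4.64 to 5.06) did not pass it. Of the mesenchymal genes, Vim (13.77 to 14.10), Cdh2 (11.47 to 12.11) and S100a4 (9.55 to 12.58) were also well above the limit in these arrays. So were Fn1, Zeb1 and Zeb2, whereas Acta2 (4.86 to 7.50) and Tagln (5.41 to 8.42) fell below it on some of them. Of 9 measured immune cell markers 4 passed the filter, among them Csf1r (7.18 to 8.72 in total RNA) and Cd68 (5.94 to 8.41), while Ptprc, which encodes the pan-leukocyte antigen CD45, lay between 3.40 and 4.35 over the 24 arrays. Pcbp1 followed the knockdown label, at 13.08 and 13.12 in untreated NMuMG total RNA against 10.79 and 10.86 in untreated E1KD. With TGFβ it was 13.14 and 13.14 in NMuMG and 9.55 and 9.33 in E1KD.

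The α-hnRNP E1 arrays had conflicting labels. By their titles 13A and 14B were controls and 14A and 13B TGFβ-treated, whereas their descriptions named TGFβ for 14A and 14B and for neither array numbered 13. Results that rest on these arrays are therefore given pooled over treatment, and by array as values.

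No value could be given for 3 of the 32 genes. Ifi44 and Oas1g had no probe set of a single symbol, and the probe set of Isg15, which encodes a ubiquitin-like modifier, also carries another symbol. A further 7 did not pass the filter. Ifit1, Oasl2, Mx1, Gbp2, Gbp3 and Xaf1 were above the limit in 0 of the 32 arrays, with medians of 4.30, 3.52, 3.83, 4.29, 3.71 and 4.61, and Dhx58 was above it in 2 with a median of 4.67. No difference between groups was tested for these 10. The 22 that passed had to be above the limit in 8 arrays, so their counts describe the measurable genes.

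The first question was how TGFβ moved these transcripts in total RNA of NMuMG cells. Both measurable IFIT transcripts, whose proteins bind foreign RNA and restrain translation, fell, and the transcription factor Irf1 and the RNA sensor Ifih1 rose. Ifit3 was 7.87 and 8.18 in the control arrays and 5.94 and 5.98 in the TGFβ arrays. Ifit2 was 9.16 and 9.24 without and 7.80 and 7.91 with TGFβ. For both genes every control array lay above every treated array. With 2 arrays per group such a separation is easily met, here and below, and is no further support for a call. In limma, Ifit3 was 4.18-fold lower (log2 difference -2.06, SE 0.28, adjusted p = 0.000162). Ifit2 was 2.54-fold lower (-1.34, SE 0.23, limma adjusted p = 0.00138). Here, as throughout, fewer cells of a kind and less RNA per cell cannot be told apart in bulk RNA.

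Irf1, the factor first found on the interferon β promoter and itself induced through a GAS, was 8.87 and 8.93 without and 9.63 and 9.74 with TGFβ in NMuMG cells. That is 1.72-fold higher (0.79, SE 0.12, limma adjusted p = 0.000392), with no overlap of the arrays. Ifih1, which encodes the sensor of long double-stranded RNA MDA5, was 6.11 and 5.96 without and 6.97 and 7.08 with TGFβ. Its difference of 0.99 (SE 0.24, limma adjusted p = 0.0190) was past the threshold with all 24 arrays. It lost its call when any 1 of the 4 arrays concerned was left out, with adjusted p from 0.0866 to 0.168, whereas Ifit2, Ifit3 and Irf1 kept theirs in each case. Over the 22 genes 2 rose and 2 fell, where 3% of 25432 probe sets rose and 2.43% fell, and the median difference was -0.01 against 0.01 for all probe sets. Next in limma came Irgm1 (0.62, adjusted p = 0.0753) and Cmpk2 (-0.44, adjusted p = 0.109). A fit of the 8 total RNA arrays alone called 6 genes higher and 4 lower, and in that fit 10.2% of all probe sets were higher and 7.12% lower.

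**Figure D1:**
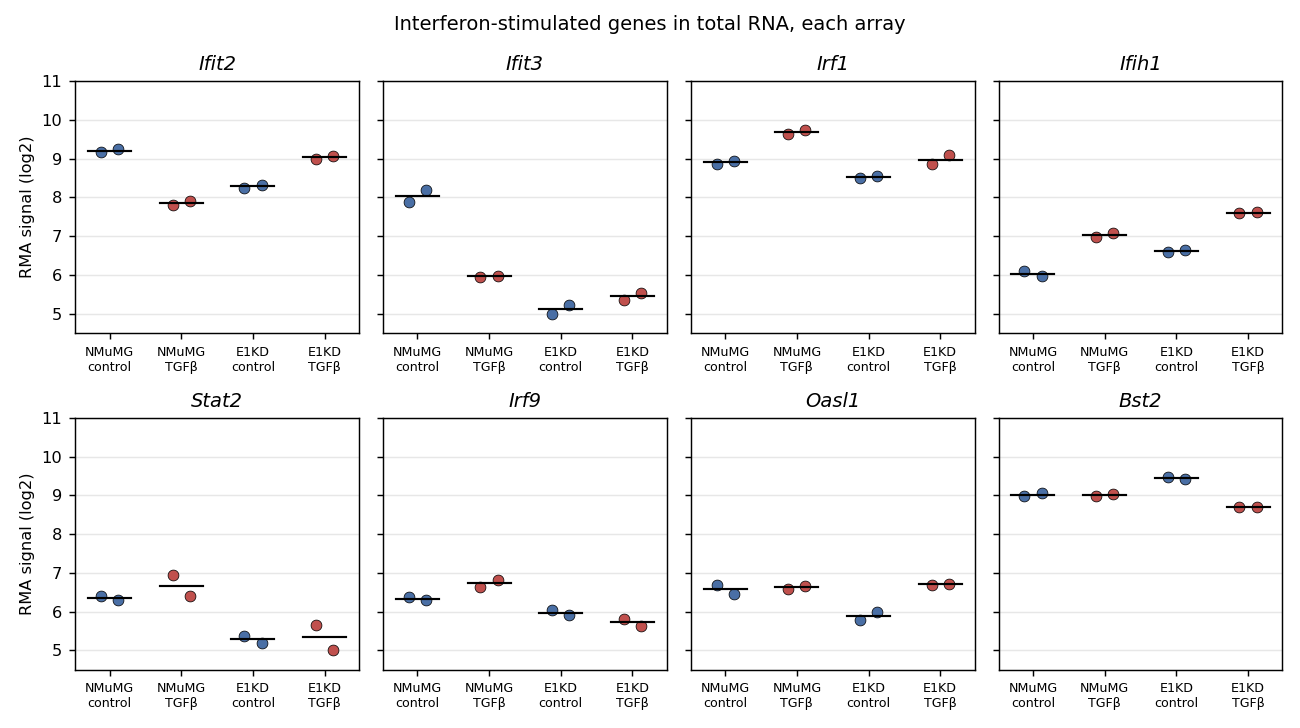
Log2 RMA signal of 8 interferon-stimulated genes in total RNA (y axis) for NMuMG and E1KD cells without (blue) and with TGFβ (red). Points are the 2 arrays of a group and bars their mean. Ifit3 is between 7.87 and 8.18 in untreated NMuMG arrays and at or below 5.98 in the other 6, and Ifit2 falls with TGFβ in NMuMG and rises in E1KD cells.

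In E1KD cells the same treatment gave another picture. Ifit2 was 8.24 and 8.33 without and 9.0 and 9.07 with TGFβ, and it rose by 0.75 (SE 0.23, limma adjusted p = 0.0271). Ifit3 was 5.0 and 5.22 without and 5.36 and 5.54 with TGFβ, a difference of 0.34 that was not past the threshold. Oasl1, a member of the oligoadenylate synthetase family without the synthetase activity, rose from 5.79 and 6.0 to 6.69 and 6.72 (0.81, SE 0.23, limma adjusted p = 0.0195). Ifih1 rose by 0.98 (SE 0.24, limma adjusted p = 0.00662), and Irf1 by 0.46 (SE 0.12, limma adjusted p = 0.00851).

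In E1KD cells 2 genes fell. Bst2, which encodes the virus-tethering membrane protein tetherin, was 9.47 and 9.41 without and 8.71 and 8.71 with TGFβ (-0.73, SE 0.12, limma adjusted p = 0.000463). Tap1, a subunit of the peptide transporter that loads MHC class I, went from 5.80 and 5.73 to 5.19 and 5.33 (-0.51, SE 0.15, limma adjusted p = 0.0197). The arrays did not overlap for any of these 6 genes, which with 2 arrays per group adds nothing to their calls. The counts were 4 higher and 2 lower of 22, where 11.4% of all probe sets were higher and 9.75% lower, with a median of 0.03 against -0.01 for all. Bst2 alone kept its call without each of the 4 arrays. Ifih1 lost it without the first control array (adjusted p = 0.05), Irf1 without the first control or second TGFβ array (adjusted p up to 0.123), Tap1 without either control or the first TGFβ array (up to 0.149), and Ifit2 and Oasl1 without any of the 4 (up to 0.137 and 0.140). After quantile normalization 1 gene was higher and 1 lower, and after centring on Actb and Gapdh 2 and 2. The total RNA arrays alone gave 6 and 2, where 22% and 19.3% of all probe sets were called. The second Tap1 probe set gave -0.31 (limma adjusted p = 0.224).

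The difference between the TGFβ responses of the lines was tested as an interaction, E1KD minus NMuMG. Ifit3 had the largest value, 2.40 (SE 0.39, limma adjusted p = 0.000642), followed by Ifit2 at 2.10 (SE 0.32, limma adjusted p = 0.00042). The untreated E1KD arrays of Ifit3, at 5.0 and 5.22, were already below the filter limit. A fall of Ifit3 with TGFβ in E1KD cells may therefore not have been measurable, which limits the reading of its value. Bst2 was at -0.73 (SE 0.17, limma adjusted p = 0.0114), and its NMuMG arrays were 8.97 and 9.05 without and 8.98 and 9.04 with TGFβ. Thus 2 genes were higher and 1 lower, where 5.76% and 5.69% of all probe sets were, and the median of 0.01 stood beside -0.02. Ifit2 and Ifit3 kept their calls when each of the 8 arrays was left out. Bst2 lost its call without the first untreated or the second treated NMuMG array, with an adjusted p of at most 0.0538. The total RNA arrays alone gave 4 higher and 3 lower, beside 14.3% and 14.6% of all probe sets. Oasl1 (0.75, adjusted p = 0.180) and Irf9 (-0.64, adjusted p = 0.171) did not pass in limma.

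**Figure D2:**
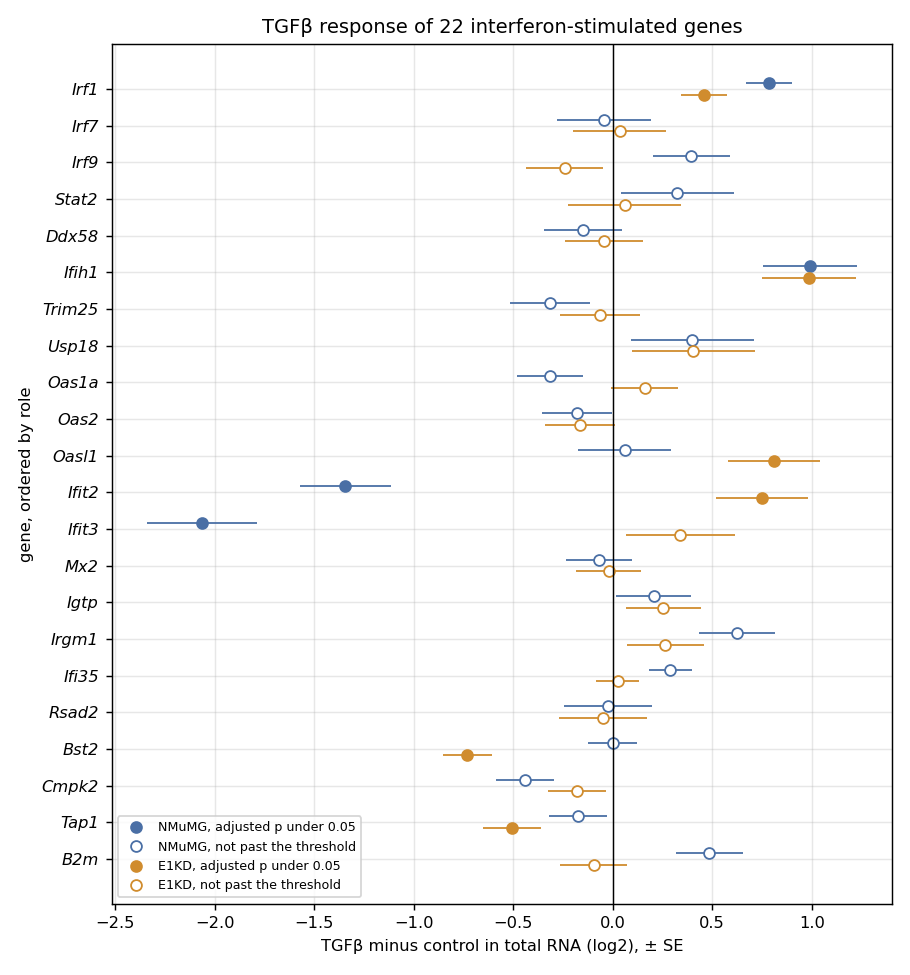
TGFβ minus control in total RNA (log2, x axis) of the 22 genes that passed the filter, in NMuMG (blue) and E1KD cells (orange), with bars for the SE of the limma fit and filled points for an adjusted p under 0.05. Ifit2 and Ifit3 lie left of 0 in NMuMG and right of 0 in E1KD cells, with the E1KD value of Ifit3 not past the threshold.

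The lines were then compared with each other, to see which transcripts differed with the silencing of hnRNP E1. In untreated total RNA 7 of the 22 genes were lower in E1KD cells and 2 higher, where 13.5% of all probe sets were lower and 15.8% higher, and the median was -0.21 against -0.02. Ifit3 was 7.54-fold lower (-2.92, SE 0.28, limma adjusted p = 5.31e-07), the largest difference of these genes in the comparisons of total RNA. Its untreated E1KD arrays, at 5.0 and 5.22, were also below the TGFβ-treated NMuMG arrays. Both were below the filter limit, so the size of this difference is bounded by the floor of the signal. Ifit2 was lower as well (-0.92, SE 0.23, limma adjusted p = 0.00575).

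Components of the interferon signalling pathway were among the lower genes. Stat2, a component of ISGF3, was 6.40 and 6.29 in NMuMG and 5.37 and 5.19 in E1KD control arrays (-1.06, SE 0.29, limma adjusted p = 0.00912). Its second probe set gave -0.64 (limma adjusted p = 0.0835). Both E1KD values of the Stat2 probe set used are below the filter limit of 5.52. Irf1 (-0.39) was lower, and so were Oas1a (-0.65), a synthetase of the oligoadenylates that activate RNase L, and Oasl1 (-0.68) of the same family (limma adjusted p from 0.00718 to 0.0382 for these 3). The seventh call was that of Usp18, a protease that removes ISG15 and restrains the type I receptor, at 5.0 and 5.41 in NMuMG and 4.26 and 4.42 in E1KD arrays (-0.86, limma adjusted p = 0.0449). All 4 of these values are below the filter limit of 5.52. Usp18 passed the filter through 7 immunoprecipitation arrays and 1 of the other 24, so its difference in total RNA is one between signals at the floor, and without it 6 genes were lower. The antigen presentation gene B2m, the light chain of MHC class I, was 12.70 and 12.65 in NMuMG and 13.32 and 13.32 in E1KD cells, higher by 0.65 (SE 0.17, limma adjusted p = 0.00776). Bst2 was higher by 0.43 (SE 0.12, limma adjusted p = 0.0139).

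Only Ifit2 and Ifit3 kept their calls without each of the 4 arrays here. Irf1, Usp18 and Oasl1 lost theirs without any one of them (adjusted p up to 0.110, 0.277 and 0.216), Stat2 without the first NMuMG or second E1KD array (up to 0.0709), Oas1a without the second array of either line (up to 0.0618), Bst2 without the first NMuMG or either E1KD array (up to 0.0991), and B2m without the second NMuMG array (0.0536). The count was 3 higher and 5 lower after quantile normalization, 3 and 4 after centring on Actb and Gapdh, and 5 and 10 in a fit of the total RNA arrays alone, in which 24.1% of all probe sets were higher and 22.5% lower. Mesenchymal markers differed between the lines as well: 7 of 8 were higher in untreated E1KD cells with a median of 1.51, and Cd68 (1.74) was higher and Csf1r (-1.41) lower among 4 immune markers tested. The mean signal of the 9 immune markers was 5.15 to 5.36 in untreated NMuMG and 5.24 to 5.26 in untreated E1KD total RNA. Their part in these differences was not tested.

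With TGFβ the E1KD cells were lower in 2 components of ISGF3. Stat2 was 6.95 and 6.39 in NMuMG and 5.66 and 5.02 in E1KD arrays (-1.33, SE 0.29, limma adjusted p = 0.00213), and both its probe sets passed. The E1KD value of 5.02 is below the filter limit. Irf9, the DNA-binding subunit of ISGF3, was 6.64 and 6.82 in NMuMG and 5.82 and 5.64 in E1KD arrays (-1.0, SE 0.19, limma adjusted p = 0.000941). Irf1 (-0.71) and Irgm1 (-0.56), an immunity-related GTPase of autophagy and vacuole control, were also lower (limma adjusted p = 0.000195 and 0.0372). Usp18 was called too (-0.86, limma adjusted p = 0.0490), from 5.72 and 5.49 in NMuMG and 4.76 and 4.73 in E1KD arrays, of which 1 is above the filter limit.

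Ifit2 went the other way, higher by 1.18 (SE 0.23, limma adjusted p = 0.000958), after being lower without TGFβ. Ifit3, at -0.51, was not past the threshold. In all 1 gene was higher and 5 lower of 22, the 5 including Usp18, where 14.7% of all probe sets were higher and 12.5% lower, with a median of -0.08 against -0.03. Usp18 and Irgm1 lost their calls without any of the 4 arrays (adjusted p up to 0.228 and 0.152), and the other 4 kept theirs. A fit of the total RNA arrays alone called 2 higher and 8 lower, and 23.9% and 22.5% of all probe sets. Trim25, a ubiquitin ligase of the RIG-I pathway, differed among its probe sets. The one used gave -0.37 without and -0.12 with TGFβ, neither past the threshold, whereas another gave -1.24 and -0.84 (limma adjusted p = 9.35e-05 and 0.00324). The 4 comparisons of total RNA share arrays in pairs, so their values are given side by side and not as separate evidence.

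The remaining genes of the set stayed below the threshold in these 4 comparisons. They were Irf7, which amplifies interferon production, Ddx58, which encodes the RNA sensor RIG-I, Rsad2, which encodes viperin, the nucleotide kinase gene Cmpk2, the dynamin-like GTPase gene Mx2, Oas2, Ifi35, Igtp and Trim25. Irf7, Oas2, Mx2 and Cmpk2 were above the filter limit in 0 of the 8 total RNA arrays, so a difference there may not have been measurable. Igtp, another immunity-related GTPase, came nearest among the lower ones in untreated cells (-0.46, limma adjusted p = 0.0872), and Ifi35 among the higher ones (0.27, limma adjusted p = 0.0833).

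Upstream genes were taken as lists. Of the interferon ligands, receptors and JAK-STAT genes, 12 were measured and 10 passed the filter, and the ligands Ifnb1 and Ifng were the 2 that did not. With TGFβ in NMuMG cells 2 rose, the kinase gene Jak2 (0.82, limma adjusted p = 0.0033) and the receptor subunit Il10rb (0.72, limma adjusted p = 0.00167). Of all probe sets 3% rose and 2.43% fell. In E1KD cells the same 2 genes rose, by 0.52 and 0.54, and Ifnar2, a subunit of the type I receptor, fell by 0.80. There 11.4% of all probe sets rose and 9.75% fell. Between untreated lines Jak2 (-1.15) and the interferon λ receptor Ifnlr1 (-1.25) were lower in E1KD cells, and Ifnar2 (0.83) and Jak1 (0.68) were higher. In all 3 were higher and 2 lower, where 15.8% of all probe sets were higher and 13.5% lower. Jak2 was lower (-1.44) with TGFβ as well, where 1 of the 10 was higher and 2 lower, beside 14.7% and 12.5% of all probe sets. These lists were not tested against the shares of all probe sets.

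A second list held 12 further sensors, such as Tlr4, with adaptors, kinases and transcription factors. Of these 0 passed with TGFβ in NMuMG cells in limma, where 3 had an unadjusted p under 0.05, beside 3% of all probe sets that rose and 2.43% that fell. Ticam1 (-1.01) and Ikbke (-0.64) fell in E1KD cells, where 11.4% of all probe sets rose and 9.75% fell. Untreated E1KD cells were higher in Tlr4 (1.95) and Ticam1 (0.54) and lower in Ikbke (-1.15), and with TGFβ higher in Tlr4 (2.17) and lower in Ikbke (-1.34) and Rela (-0.28). Of 8 inhibitors of the pathway, 1 was higher and 2 lower in untreated E1KD cells, where 15.8% of all probe sets were higher and 13.5% lower. Socs3, a feedback inhibitor of JAK kinases, was lower in untreated E1KD cells (-2.09, limma adjusted p = 1.55e-08), rose there with TGFβ (1.48, limma adjusted p = 2.37e-06), and was the inhibitor whose TGFβ response differed between the lines (1.59, limma adjusted p = 8.37e-05). In NMuMG cells 0 of the 8 passed with TGFβ in limma, where 1 had an unadjusted p under 0.05, beside the same 3% and 2.43% of all probe sets.

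Other interferon-stimulated genes outside the set were counted for comparison, 26 of 36 measured having passed the filter. With TGFβ in NMuMG cells 3 rose, Parp12 (1.2), Ifi204 (1.16) and Tor3a (0.72), and 1 fell, Lgals3bp (-0.86), beside 3% and 2.43% of all probe sets. In E1KD cells 4 rose, led by Dtx3l (1.38), Parp12 (1.01) and Sp110 (0.99), and 2 fell, beside 11.4% and 9.75% of all probe sets. In untreated E1KD against NMuMG cells 6 were higher and 4 lower, with Parp12 (2.20), Ly6e (2.03) and Ifi27 (1.66) the largest of the first and Lgals3bp (-1.25) of the second. Of all probe sets 15.8% were higher and 13.5% lower there. With TGFβ 7 were higher, led by Ly6e (2.60), and 6 lower, led by Helz2 (-1.23), where 14.7% and 12.5% of all probe sets were. Whether this list differed from the set of 32 was not tested.

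Of the further antigen presentation genes 10 of 12 passed the filter. With TGFβ in NMuMG cells the loading chaperone gene Tapbp rose (0.55, limma adjusted p = 0.0166), and in E1KD cells the chaperone genes Calr (-1.2), Pdia3 (-0.80) and Canx (-0.44) fell. Between the untreated lines 3 were higher in E1KD cells and 0 lower, namely the class I heavy chain gene H2-D1 (2.66, limma adjusted p = 1.44e-06), Calr (0.92) and Pdia3 (0.42). Beside them stand 15.8% of all probe sets that were higher and 13.5% that were lower. With TGFβ H2-D1 was higher (3.17, limma adjusted p = 2.38e-07), and Pdia3 (-0.59), Tapbp (-0.57) and Canx (-0.39) were lower. The other heavy chain gene, H2-K1, gave 0.16 without and 0.10 with TGFβ (limma adjusted p = 0.563 and 0.738). Heavy chain genes are similar in sequence, so their probe sets may hybridize to more than 1 of them.

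The second question was how the same transcripts were divided between the monosomal and the polysomal pool. The measure is the polysomal minus the monosomal log2 signal, in which a positive value means relatively more signal in the translating pool. These values do not measure how much RNA each pool held. Irf7, Oas2, Mx2 and Cmpk2 had passed the filter through fraction arrays only, which limits their part in the counts here and below. In untreated NMuMG cells 10 of the 22 genes were higher in the polysomal pool and 4 lower, where 29.3% of all probe sets were higher and 41.9% lower, and the median was 0.25 against -0.14. The median of all probe sets depended on the level, 0.36 for those with a mean below 6 and -0.54 for those above 8. For the 8 genes of the set with a mean below 6 the median was 0.42, for 8 between 6 and 8 it was 0.59 (all probe sets -0.14), and for 6 above 8 it was -0.21.

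The antiviral enzymes were among those higher in polysomes of untreated NMuMG cells. Oas1a was 7.89 and 7.82 in the monosomal and 9.35 and 9.17 in the polysomal arrays (1.41, SE 0.17, limma adjusted p = 2e-06). Ifit3 (1.08), Oas2 (1.04), Oasl1 (0.95), Irf7 (0.82), Mx2 (0.80), Tap1 (0.64), Irf9 (0.60), Rsad2 (0.57) and Bst2 (0.31) were the other 9. Ifit2 was the opposite, at 8.11 and 8.02 in the monosomal and 6.45 and 5.75 in the polysomal arrays (-1.97, SE 0.23, limma adjusted p = 1.52e-06). B2m (-1.23), Trim25 (-0.76) and Ifi35 (-0.33) were also lower. The value of Ifi35 turned to 0.06 under quantile normalization (limma adjusted p = 0.553), and Bst2 lost its call without either monosomal or the first polysomal array (adjusted p up to 0.173). With the second polysomal array left out Irf7, Irf9, Oasl1, Rsad2, Trim25 and Ifi35 lost theirs, which left 8 called. Rsad2 and Ifi35 also lost their calls without the second monosomal array, and Irf9 without the first. The count was 13 higher and 2 lower after quantile normalization and 12 and 3 after centring on Actb and Gapdh, where the median of all probe sets turned to 0.06 and 0.09.

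**Figure D3:**
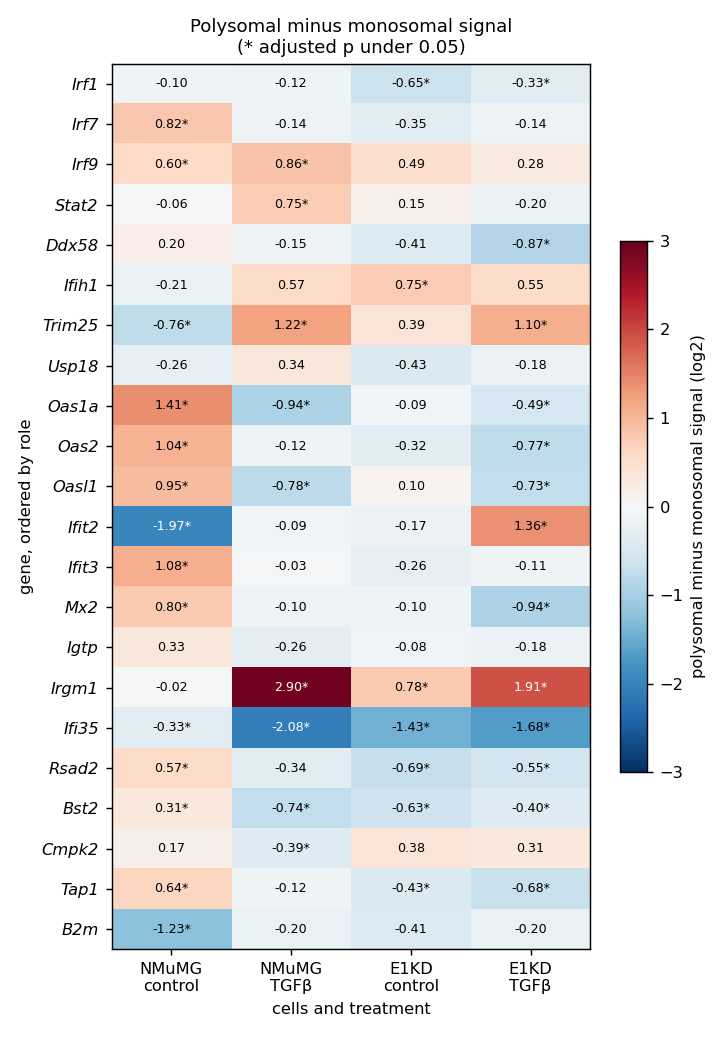
Polysomal minus monosomal log2 signal (colour and numbers) of the 22 genes that passed the filter, in 4 conditions, with a star for an adjusted p under 0.05 in limma. Oas1a, Oas2 and Oasl1 are positive in untreated NMuMG cells, Irgm1 goes from -0.02 to 2.90 with TGFβ, and Ifi35 is negative in all 4 columns, the first of which turns to 0.06 under quantile normalization.

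With TGFβ the NMuMG cells had 4 genes higher and 5 lower in polysomes, where 27.6% of all probe sets were higher and 22.1% lower, with a median of -0.12 against 0.01. Irgm1 was 6.91 and 7.76 in the monosomal and 10.20 and 10.26 in the polysomal arrays, 7.44-fold higher (2.90, SE 0.19, limma adjusted p = 3.65e-09). Trim25 was higher by 1.22, Irf9 by 0.86 and Stat2 by 0.75. Ifi35 was 11.66 and 11.93 in the monosomal and 9.82 and 9.61 in the polysomal arrays (-2.08, SE 0.11, limma adjusted p = 4.13e-10). Oas1a (-0.94), Oasl1 (-0.78), Bst2 (-0.74) and Cmpk2 (-0.39) were lower too. The second Tap1 probe set gave -1.19 where the one used gave -0.12, and the third set of Trim25 gave -0.21. Stat2 lost its call without any of the 4 arrays, Oasl1 without the first monosomal or second polysomal array, and Cmpk2 without the first of either pool. Centring on Actb and Gapdh gave 5 higher and 3 lower and moved the median of all probe sets to 0.28.

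In untreated E1KD cells 2 genes were higher in polysomes, Irgm1 (0.78) and Ifih1 (0.75), and 5 were lower, Ifi35 (-1.43), Rsad2 (-0.69), Irf1 (-0.65), Bst2 (-0.63) and Tap1 (-0.43). Of all probe sets 16.8% were higher and 18.2% lower, and the medians were -0.21 and -0.01. Rsad2 lost its call without either monosomal or the first polysomal array, Ifih1 without the second array of either pool, and Tap1 without the first of either pool (limma adjusted p up to 0.23). Quantile normalization gave 4 higher and 6 lower. The second Tap1 probe set gave 0.29, which was not past the threshold.

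In E1KD cells with TGFβ 3 were higher and 10 lower, where 34% of all probe sets were higher and 26.6% lower, with a median of -0.20 against 0.04. Irgm1 (1.91, SE 0.19, limma adjusted p = 3.12e-07), Ifit2 (1.36, SE 0.23, limma adjusted p = 8.16e-05) and Trim25 (1.10, SE 0.20, limma adjusted p = 0.000187) were the higher ones. Ifit2 was 5.86 and 5.15 in the monosomal and 6.79 and 6.94 in the polysomal arrays, with no overlap. The lower ones were Ifi35 (-1.68), Mx2 (-0.94), Ddx58 (-0.87), Oas2 (-0.77), Oasl1 (-0.73), Tap1 (-0.68), Rsad2 (-0.55), Oas1a (-0.49), Bst2 (-0.40) and Irf1 (-0.33). Centred on Actb and Gapdh this became 5 higher and 6 lower, and the median of all probe sets moved to 0.16. Rsad2 lost its call without any of the 4 arrays, Oas1a without either monosomal or the first polysomal array, Oasl1 and Irf1 without the first monosomal or second polysomal array, and Bst2 without the second of either pool (limma adjusted p up to 0.203). Another Trim25 probe set gave -0.49 (limma adjusted p = 0.0345), and the second of Tap1 gave 0.22 (limma adjusted p = 0.268).

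**Figure D4:**
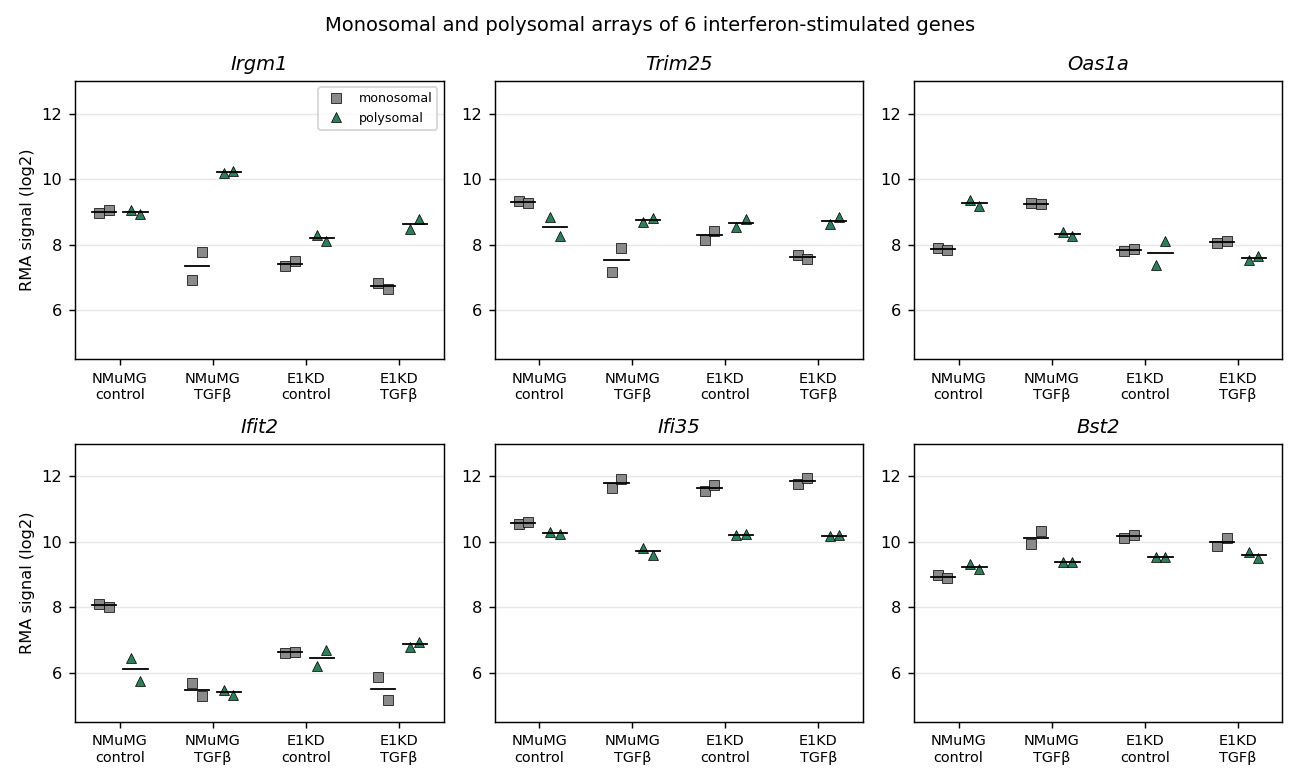
Log2 RMA signal (y axis) of 6 interferon-stimulated genes in the monosomal (grey squares) and polysomal arrays (green triangles) of each cell line and treatment, with 2 arrays per group and bars for their mean. The polysomal arrays of Irgm1 with TGFβ lie at 10.20 and 10.26 in NMuMG cells, above the monosomal arrays at 6.91 and 7.76.

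The polysome shift, the polysomal minus monosomal value with TGFβ less the same value without, was positive for 5 genes and negative for 11 in NMuMG cells. It is built from the same arrays as the values above and is not separate evidence. Of all probe sets 40.1% were positive and 30.3% negative, and the median of the 22 genes was -0.57 against 0.09. Within each range of level the genes had the lower median: -0.66 against -0.45 below 6, -0.75 against 0.03 from 6 to 8, and 0.50 against 0.82 above 8. The negative shifts were those of Oas1a (-2.35), Ifi35 (-1.75), Oasl1 (-1.73), Oas2 (-1.17), Ifit3 (-1.10), Bst2 (-1.05), Irf7 (-0.96), Rsad2 (-0.92), Mx2 (-0.90), Tap1 (-0.76) and Cmpk2 (-0.56). Among them Oas2, Irf7, Mx2 and Cmpk2 had passed the filter through fraction arrays only.

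The positive shifts were those of Irgm1 (2.92, SE 0.27, limma adjusted p = 1.33e-07), Trim25 (1.98), Ifit2 (1.88), B2m (1.03) and Ifih1 (0.79). All 3 Trim25 probe sets shifted up (1.98, 2.88 and 1.14), all 3 of Ifi35 down, and both of B2m up. The shift of Ifit2 came with a monosomal signal that went from 8.11 and 8.02 to 5.68 and 5.28, while its polysomal arrays went from 6.45 and 5.75 to 5.48 and 5.31. The shift of Oas1a came with a monosomal signal of 9.28 and 9.23 and a polysomal signal of 8.38 and 8.25 with TGFβ, the reverse of the order without it. Without the first TGFβ-treated monosomal array Ifit3, Irf7, Rsad2, Ifih1 and Cmpk2 lost their calls, and the replicates of that group had the lowest correlation of any group across all probe sets (r = 0.974). Ifit3, Irf7 and Rsad2 also lost theirs without the second untreated polysomal array, Irf7 without the first treated polysomal array, and Rsad2 without the second untreated monosomal array. Ifih1 lost its call without 6 of the 8 arrays and Cmpk2 without 4 (limma adjusted p up to 0.196).

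In E1KD cells 2 shifts were positive, Ifit2 (1.53, SE 0.32, limma adjusted p = 0.00323) and Irgm1 (1.12, SE 0.27, limma adjusted p = 0.00687), and 1 was negative, Mx2 (-0.84, SE 0.23, limma adjusted p = 0.0152). Of all probe sets 20.9% were positive and 7.73% negative, with medians of -0.09 for the genes and 0.08 for all. Mx2 lost its call without 3 of the 8 arrays, up to an adjusted p of 0.0667: the second untreated monosomal, the second untreated polysomal and the first treated polysomal array. Quantile normalization gave 2 positive and 4 negative. Of the other Trim25 probe sets 1 shifted up (1.06) and 1 down (-0.91), while the one used gave 0.71 and was not past the threshold.

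Whether the shifts differed between the lines was tested directly, E1KD minus NMuMG. Oas1a (1.94, SE 0.34, limma adjusted p = 0.000434), Ifi35 (1.51, SE 0.22, limma adjusted p = 0.000106) and Bst2 (1.29, SE 0.25, limma adjusted p = 0.000906) were positive. Irgm1 (-1.79, SE 0.38, limma adjusted p = 0.00204) and Trim25 (-1.26, SE 0.40, limma adjusted p = 0.0230) were negative. This is 3 positive and 2 negative of 22, where 13.1% of all probe sets were positive and 23.5% negative, with a median of 0.41 against -0.10. For Ifit2, whose shifts were 1.88 and 1.53, the difference was -0.34 and not past the threshold. The shifts were unlike in their parts, as the polysomal signal of Ifit2 fell with TGFβ in NMuMG cells, to 5.48 and 5.31, below the filter limit. In E1KD cells it went from 6.21 and 6.68 to 6.79 and 6.94. Trim25 lost its call without the second untreated polysomal array of either line, the first untreated monosomal or the first treated polysomal array of E1KD cells (adjusted p up to 0.0616), and the other 4 genes kept theirs without any 1 of the 16. All 3 Trim25 probe sets passed with a negative value, whereas the third Ifi35 probe set gave 0.53 (limma adjusted p = 0.13). The count rose to 9 without the first untreated polysomal and to 10 without the second treated monosomal array of NMuMG cells, and quantile normalization gave 3 positive and 1 negative.

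Receptor and kinase genes were counted in the same measure. In NMuMG cells 6 of the 10 that were tested shifted up and 1 down, with a median of 0.86, led by Jak1 (2.90), Jak2 (2.75), Il10rb (2.13) and Ifngr2 (1.98). Of the 26 other interferon-stimulated genes 10 shifted up and 6 down with a median of 0.24, and Eif2ak2, the RNA-activated kinase PKR, had the largest shift at 4.14 (SE 0.43, limma adjusted p = 4.56e-07). Of the further sensors, adaptors, kinases and transcription factors 3 of 12 shifted up and 5 down. Of the inhibitors 4 of 8 shifted up and 1 down, and of the antigen presentation genes 4 of 10 up and 5 down. Beside these lists stand the 40.1% of all probe sets that shifted up and the 30.3% that shifted down, and 56.9% and 26% of those with a mean above 8. No list was tested against them. The mean signal of the 9 immune markers was 5.06 to 5.12 in the monosomal and 5.53 to 5.75 in the polysomal arrays of untreated NMuMG cells, and 5.62 to 5.66 and 5.47 to 5.53 with TGFβ, and its part was not tested.

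The third question was which of these transcripts came down with hnRNP E1. Pooled over treatment, the α-hnRNP E1 minus IgG difference was positive for 1 gene and negative for 2, where 14% of all probe sets were positive and 11.7% negative, and the median was -0.02 against -0.01. Stat2 was between 7.03 and 7.45 on the 4 α-hnRNP E1 arrays and between 6.25 and 6.92 on the 4 IgG arrays (0.65, SE 0.17, limma adjusted p = 0.0282). Bst2 was between 6.70 and 7.56 against 7.94 to 8.03 (-0.80, SE 0.18, limma adjusted p = 0.0166). B2m was between 10.67 and 11.37 against 11.36 to 11.77 (-0.46, SE 0.13, limma adjusted p = 0.0433). The arrays of the antibodies did not overlap for Stat2 and Bst2, and overlapped by 0.01 for B2m. This rests on the same arrays as the calls, has no share of all probe sets beside it, and is no further support for them. A second probe set gave 0.60 for Stat2 and -0.58 for B2m, both past the threshold. None of the 3 kept its call without each of the 8 arrays: Bst2 lost it without any IgG array, Stat2 without the first IgG array of either treatment or array 13A or 13B, and B2m without any array but 1. With the arrays grouped by number instead of title, 1 gene was positive and 7 negative, the differences themselves being the same, and 21.6% of all probe sets were positive and 20.5% negative.

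**Figure D5:**
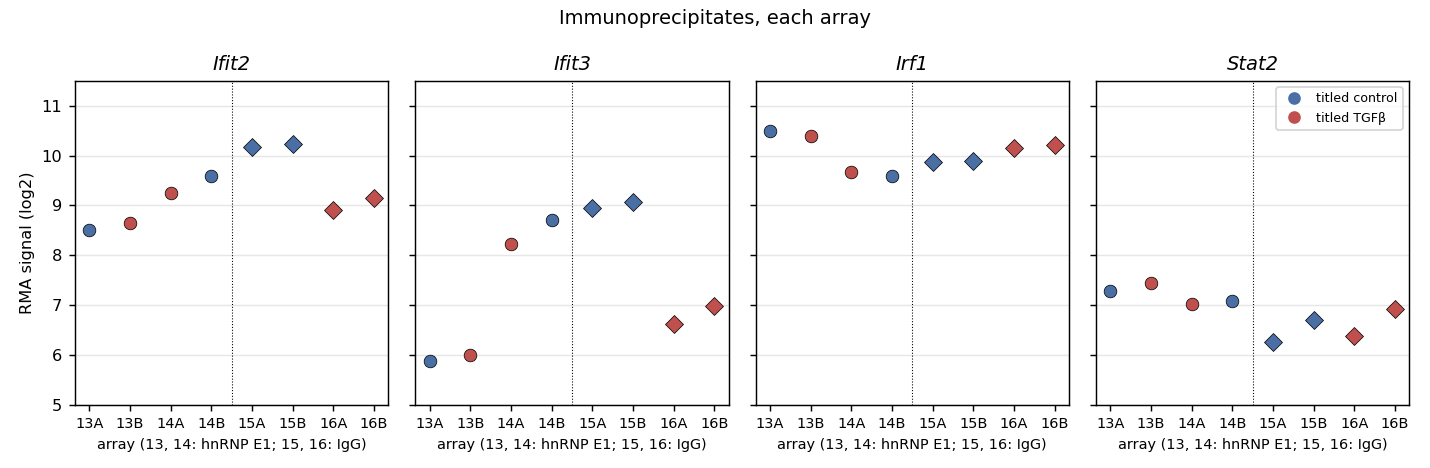
Log2 RMA signal (y axis) of 4 interferon-stimulated genes on the 8 immunoprecipitation arrays (x axis), 4 with α-hnRNP E1 (circles) and 4 with IgG (diamonds), coloured by the treatment in the array's title. Ifit3 is 5.87 and 6.0 on arrays 13A and 13B and 8.23 and 8.71 on 14A and 14B, while each number holds 1 array titled control and 1 titled TGFβ.

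Ifit3 and Ifit2 separated the α-hnRNP E1 arrays by number and not by title. Ifit3 was 5.87 on 13A and 6.0 on 13B, and 8.23 on 14A and 8.71 on 14B. Ifit2 was 8.51 and 8.64 on the arrays numbered 13, and 9.25 and 9.59 on those numbered 14. Irf1 was 10.5 and 10.4 on the arrays numbered 13, and 9.67 and 9.60 on those numbered 14. On the IgG arrays, where titles and descriptions do not conflict, Ifit3 was 8.95 and 9.07 in control and 6.62 and 6.99 in TGFβ-treated cells, Ifit2 was 10.18 and 10.23 against 8.91 and 9.16, and Irf1 was 9.87 and 9.89 against 10.16 and 10.22. The treatment of the α-hnRNP E1 arrays was not assigned from these values.

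In the IgG precipitate itself TGFβ left 0 of the 22 genes past the threshold in limma, and 3 had an unadjusted p under 0.05. These were Ifit2 (-1.17, SE 0.34), Ifit3 (-2.20, SE 0.94) and Trim25 (-0.39, SE 0.13), each with an adjusted p of 0.709. Of all probe sets 0.00393% were called higher and 0% lower, so this comparison, with 4 residual degrees of freedom, called almost nothing. With the α-hnRNP E1 arrays grouped by number in the same fit, 3 genes were called, all lower, where 2.84% of all probe sets were higher and 3% lower.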

How the data were processed

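The authors summarised the arrays by RMA in Affymetrix Expression Console, and the deposited values are on the log2 scale. MAS5 is named in the submitters' processing notes as well. Probe sets were named by the platform annotation, in which 34958 of 45101 have 1 symbol, 932 several and 9211 none. Array medians ran from 5.36 to 5.70, and nothing was normalized again. After removal of 64 control probe sets, 25432 passed the filter. Moderated tests of both directions came from limma 3.58.1 under R 4.3.3, where 1 linear model held the 24 arrays of total and fraction RNA (12 residual degrees of freedom) and another the 8 immunoprecipitation arrays (4 residual degrees of freedom). Benjamini-Hochberg adjustment covered every probe set kept, and an adjusted p under 0.05 counted as a call. The genes of the set and the further lists were chosen with earlier results of these data known. Named genes were all 32 of the set, with up to 10 past the threshold in each direction of a comparison from the largest change down, and up to 4 of each further list. Cmpk2, of the 11 negative shifts in NMuMG cells, was named after its value was seen. Probe sets of a gene other than the one used are named where they differ. Shares of promoters were counted in Python 3.11.15 with pandas 2.3.3. The fits were tested on simulated data. Alternatives were no filter, fits of the total RNA or fraction arrays alone, a replicate block, quantile normalization, centring on Actb and Gapdh (whose probe sets are among the array's controls), an intensity trend, the mean of a gene's probe sets, each array left out, the α-hnRNP E1 arrays grouped by number (for the IgG comparison chosen after seeing the data), and a wider ISRE spacing.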

Additional observations from a re-analysis of the deposited data

Results flagged for a closer look

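These results were listed because an effect differed between NMuMG and E1KD cells by a test of the difference itself. In the TGFβ response of total RNA the difference (E1KD minus NMuMG, log2) was 2.10 for Ifit2, 2.40 for Ifit3 and -0.73 for Bst2. The untreated E1KD arrays of Ifit3 lay below the filter limit, so a fall of Ifit3 with TGFβ there may not have been measurable. In the polysome shift with TGFβ the difference was 1.51 for Ifi35, 1.94 for Oas1a, 1.29 for Bst2, -1.26 for Trim25 and -1.79 for Irgm1. Each had an adjusted p under the threshold in limma, the highest being 0.0230 for Trim25. A test for single outlying arrays needs groups of 4 or more and was not run. The effect of each array was seen by leaving it out.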

How the results depend on the processing

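Counts are of the 22 genes that passed the filter. The fit of the 8 total RNA arrays alone called 10 genes for TGFβ in NMuMG cells, 15 and 10 between the lines without and with TGFβ, and 7 for the difference of the responses, against 4, 9, 6 and 3 with all 24 arrays. Quantile normalization gave 2 for TGFβ in E1KD cells (6 as deposited) and 6 for the polysome shift of E1KD cells (3), and turned the polysomal minus monosomal value of Ifi35 in untreated NMuMG cells to 0.0579. The mean of a gene's probe sets gave 8 genes for the difference of the shifts (5). Grouping the α-hnRNP E1 arrays by number gave 8 genes for α-hnRNP E1 minus IgG (3) and 3 for TGFβ in the IgG precipitate (0). Leaving out 1 array at a time gave 1 to 3 genes for TGFβ in E1KD cells, 3 to 5 between the untreated lines, 8 to 13 for polysomal minus monosomal in untreated NMuMG cells, 4 to 10 for the difference of the shifts and 0 to 4 for α-hnRNP E1 minus IgG, where the lone array of a group was assumed to vary like the other groups. No called value changed sign in these fits. The causes were not tested. Apart from left-out arrays, 98 called values of single genes were recomputed 686 times, of which 632 kept direction and call, 53 lost the call and 1 turned. The wider ISRE spacing was found in 16 of the 31 promoters (51.6%) against 5.99% of all promoters.

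Among all 25432 probe sets, centring on Actb and Gapdh changed the split of calls, higher and lower, from 764 and 618 to 989 and 480 for TGFβ in NMuMG cells, from 2906 and 2479 to 2064 and 3739 for TGFβ in E1KD cells, from 3732 and 3185 to 2911 and 4284 between the treated lines, from 1464 and 1446 to 935 and 2585 for the difference of the responses, from 7453 and 10648 to 9974 and 8992 and from 7019 and 5630 to 10040 and 3535 for polysomal minus monosomal in NMuMG cells without and with TGFβ, and from 5324 and 1965 to 6557 and 1151 for the shift of E1KD cells. Quantile normalization gave 4189 and 3557 for that shift, and 4244 and 4703 instead of 3320 and 5966 for the difference of the shifts. Centring moved the median of all probe sets to -0.13 for TGFβ in E1KD cells and between the treated lines, to -0.20 for the difference of the responses and to 0.20 for the shift of E1KD cells, so directions are relative to that median.

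The replicate numbers were checked for pairing over 66 pairs of groups, where same-numbered arrays correlated in their deviations between -0.38 and 0.32 (median 0.06). The numbers were not taken to pair the arrays. With a replicate block the counts were 8 instead of 9 between the untreated lines, 5 instead of 6 between the treated lines and 2 instead of 3 for α-hnRNP E1 minus IgG, and the same in the other 11 comparisons. Signal over background limits the rest: 7 measured genes of the set stayed below the filter and were not tested.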
